A study of Arabidopsis thaliana with 4 samples.

Results

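The nuclear RNA of leaves from an MTA-GFP line was compared with that of a control line, using the 2 libraries made before any immunoprecipitation (the inputs), out of 4 libraries in the study. The members are therefore 2 samples, the input of each line, and 11078 nuclear loci of 32548 in the files, those with at least 40 reads over the 2 inputs. Both lines are in the Col-0 background. Leaves of plants 4 weeks old, grown in soil at 22 °C with 16 h of light and 8 h of dark, were crosslinked in 0.1% formaldehyde and frozen, and nuclei were isolated from them. The MTA-GFP line carries MTA fused to green fluorescent protein. The titles label the other line GFP while its genotype entry reads CFP, and it appears below as "control". Not given in the sources used here were the promoter of either transgene, the number of plants pooled and the hour of harvest. A label field names the tissue leaf and another names it aerial tissue.

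MTA is the methyltransferase that, with partner proteins, adds N6-methyladenosine (m6A) to messenger RNA in the nucleus. An input library reports which RNAs were in the nuclear fraction that went onto the beads, so a difference between inputs precedes any capture by the tagged protein. Nuclear RNA holds transcripts still being made or processed, together with small nuclear and nucleolar RNAs and ribosomal RNA precursors, and a preparation of leaf nuclei also carries organelle RNA.

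Each group holds 1 library, so no difference here has a replicate check, no test was possible and no p-value is given. The values compare these libraries and not the lines behind them. Total reads were 43950307 in the MTA-GFP input and 40011502 in the control input. The share of nuclear messenger RNA was 2.30% in the MTA-GFP input, with a 95% Wilson interval of 2.30 to 2.31, against 4.31% in the control input, with 4.30 to 4.31. In the MTA-GFP input, chloroplast RNA made up 19.6%, mitochondrial RNA 1.54%, ribosomal DNA loci 41.7% and structural RNA entries without a locus 34.1%. The same classes made up 22.1%, 2.17%, 44.0% and 26.3% of the control input. Reads were scaled so that the typical nuclear locus has a log2 ratio near 0, by factors of 0.748 for the MTA-GFP input and 1.34 for the control input. An equal scaled level therefore means fewer reads in the MTA-GFP input. A log2 ratio below is that of scaled reads in the MTA-GFP input over the control input, with its exact 95% interval in parentheses. The intervals cover counting error only, and since PCR copies of 1 molecule were not told apart by identifiers, they may be too narrow even for that.

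A locus is called higher or lower when its ratio reaches 2-fold and the interval does not include 1. By this rule 804 of the 11078 loci were higher in the MTA-GFP input, which is 7.26%, and 758 were lower, which is 6.84%. The split of calls rests on the scale. Scaled to all reads on nuclear loci, 74 loci were higher and 4338 lower, and scaled to all reads of the library 50 were higher and 5354 lower. On the deposited TPM values, rescaled to their sum over coding loci outside ribosomal DNA, 499 were higher and 1091 lower. Calls on TPM needed 2-fold alone, without an interval. The median of all loci moved by -0.83, -0.97 and -0.17 under these 3 scales, and the ratios below are relative to the typical nuclear locus.

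**Figure D1:**
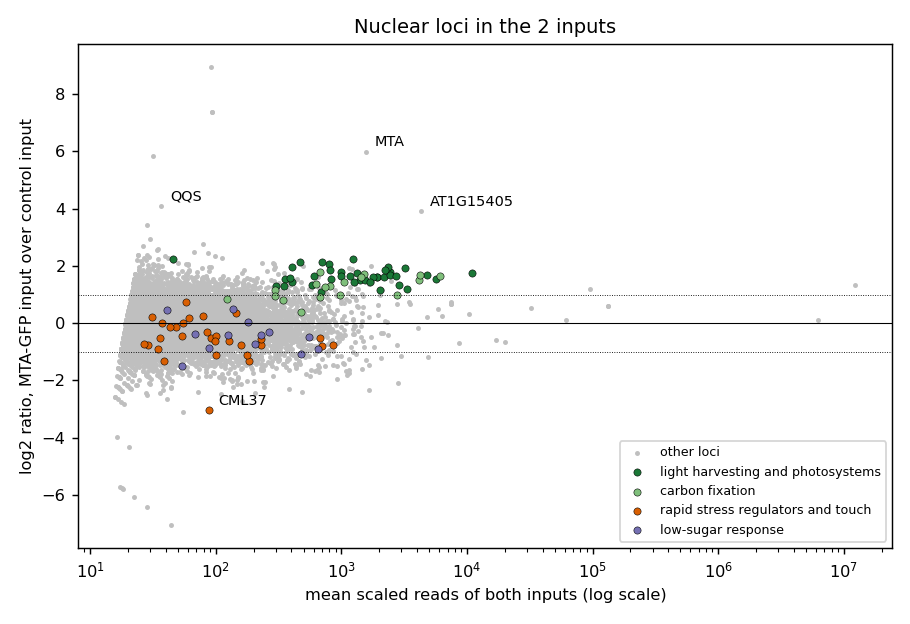
Each point is 1 of the 11078 nuclear loci: the mean of its scaled reads in both inputs on the horizontal axis (log scale) and its log2 ratio, MTA-GFP input over control input, on the vertical axis. Dotted lines mark 2-fold. All light harvesting and photosystem loci lie above the upper line, while the rapid stress, touch and low-sugar loci lie mostly below 0, with CML37 at -3.03 and MTA at 5.99.

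The transcript of the tagged gene checks the labels. MTA (AT4G10760) had 2291 reads in the MTA-GFP input and 64 in the control input. The ratio was 63.5-fold, or 5.99 on the log2 scale (5.64 to 6.38), and MTA was the coding locus farthest from 0 upward by the end of its interval nearest 0. The genes on either side of it were not called. AT4G10750 had 14 reads in the MTA-GFP input and 37 in the control input, at -0.53 (-1.56 to 0.36). OPT7, an oligopeptide transporter family gene, had 61 MTA-GFP and 133 control reads, at -0.28 (-0.75 to 0.16). These neighbours were chosen for their position.

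Of the 4 subunit genes of the writer complex that reached the read minimum, MTA was the 1 that was called. EMB1691, the locus of the partner subunit MTB, was at -0.52 (-0.98 to -0.10), from 62 reads for the MTA-GFP input and 160 for the control input. FIP37, an adaptor subunit, was at -0.24 and EMB2016, the locus of the subunit VIRILIZER, at 0.38. Their counting intervals reach 0 (-0.82 to 0.31 and -0.02 to 0.77). Among 10 reader genes, which encode proteins that bind m6A, 0 were higher and 1 was lower (against 6.84% of all loci), with a median of -0.20. ECT2, the reader locus with the most reads, had 335 reads in the MTA-GFP input and 581 in the control input and stood at 0.05 (-0.15 to 0.24). CPSF30, a polyadenylation factor whose longer isoform binds m6A, was lower at -1.11 (-1.83 to -0.49) with 25 MTA-GFP and 98 control reads. Apart from MTA, then, the tested writer subunits lay within 2-fold between the 2 inputs on the scale of the typical locus. Scaled to all reads on nuclear loci, or to all reads, 1 of the 4 writer loci was higher and 2 were lower. Of the 10 reader loci 6 were lower and 0 higher on both of those scales.

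Of the gene lists, the photosynthesis genes of the nucleus stood farthest above the typical locus. Light harvesting proteins bind chlorophyll and pass excitation energy to the photosystems, which drive electron transport in the thylakoid membrane. All 18 light harvesting loci and all 22 photosystem loci listed reached the read minimum, and 40 of these 40 were higher in the MTA-GFP input, against 7.26% of all loci. Scaled to all reads on nuclear loci 10 of the 40 were called higher, scaled to all reads 5, and on the deposited TPM 38, with 0 lower on each of these scales. Their median log2 ratio was 1.62, beside 0.0037 over all loci, and single loci ran between 1.09 and 2.24. Summed, they held 81752 reads in the MTA-GFP input and 47233 in the control input, which gives 1.63 (1.61 to 1.65). In bulk RNA, more cells or nuclei of a type and more RNA per nucleus cannot be told apart.

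CAB1, which encodes a major antenna protein of photosystem II, had 12653 reads in the MTA-GFP input and 6746 in the control input. It stood at 1.75 (1.70 to 1.79). The other antenna loci with the most reads stood close by, at 1.53 (1.47 to 1.59) for LHCA1, 1.67 (1.61 to 1.73) for LHB1B2 and 1.94 (1.86 to 2.02) for LHCA2. LHCB2.1 was at 1.94 and LHCB3 at 1.87. LHCB4.3, the member with the fewest reads (56 in the MTA-GFP input and 21 in the control input), was at 2.23 (1.51 to 3.05), an interval that covers most of the other members. The lowest was LHCB5, a minor antenna protein, with 2105 reads in the MTA-GFP input and 1701 in the control input, at 1.15 (1.05 to 1.24).

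Among the photosystem loci, PSAL, a subunit of photosystem I, had 1516 reads in the MTA-GFP input and 574 in the control input and was 4.72-fold higher, at 2.24 (2.10 to 2.38). The small photosystem II proteins PSBY and PSBX both stood at 2.14, with MTA-GFP input reads of 849 and 571 against control input reads of 345 and 232. PSAG of photosystem I was at 2.07 (1.90 to 2.24). The subunits with the most reads stood lower than these. PSBO1, of the oxygen-evolving complex, had 3480 reads in the MTA-GFP input and 2728 in the control input and was at 1.19 (1.12 to 1.26). PSBR was at 1.43, PSBP-1 at 1.52 and PSAD-1 at 1.52. The interval of PSBO1 lies below those of PSAL, PSAG, PSBX and PSBY, which are the highest loci of the list. Since the intervals may be too narrow, whether these members differ beyond counting error was not tested.

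Genes of the Calvin cycle, which fixes carbon dioxide in the chloroplast, followed at a median of 1.28, with 11 of 18 higher, 0 lower and all 18 above 0. For this and the next lists, the share higher over all loci was 7.26%. RBCS1A, a small subunit of Rubisco, had 6872 reads in the MTA-GFP input and 3965 in the control input, at 1.63 (1.58 to 1.69). RCA, the activase of Rubisco, was at 1.69 (1.62 to 1.76), and the aldolases FBA1 and FBA2 were at 1.78 and 1.73. RBCS3B was at 1.49, while RBCS1B, a neighbouring copy of it that may exchange reads with it, was at 0.98 (0.90 to 1.06) and so just under the 2-fold rule. Photorespiration, which recovers the carbon of phosphoglycolate, had 4 of 10 loci higher and a median of 0.85. Its called members were GLDP1 (1.19), SHM1 (1.22) and GOX1 (1.21), together with PGLP1 (1.26). Photoprotection and antioxidant genes had 3 of 7 higher and a median of 0.98. They were FSD1, an iron superoxide dismutase, at 1.58 (1.16 to 2.02), VTC2, an enzyme of ascorbate synthesis, at 1.34 (0.97 to 1.72), and STO, a light-signalling protein, at 1.04 (0.64 to 1.44). The medians of the antenna, photosystem and Calvin cycle lists stay above 0 scaled to all reads, at 0.68, 0.59 and 0.31, whereas that of photorespiration turns to -0.12. That of photoprotection falls to 0.0044. Scaled to all reads, or to all reads on nuclear loci, 0 loci of the Calvin cycle, photorespiration and photoprotection lists were higher. On both scales 1 photoprotection locus was lower. As a share of all reads, RNA encoded in the chloroplast was smaller in the MTA-GFP input, at 19.6% against 22.1% in the control input. That share can be set beside the values scaled to all reads, and not beside ratios relative to the typical nuclear locus.

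Starch genes were mixed. Of 19, 3 were higher (against 7.26% of all loci) and 0 lower, and the median was 0.36, which turns to -0.62 scaled to all reads. QQS, an Arabidopsis gene that affects starch content and has no known relatives, had 52 reads in the MTA-GFP input and 5 in the control input and was 17.1-fold higher, at 4.09 (2.90 to 5.90). SS1, a starch synthase, was at 1.14 (0.73 to 1.55) and ADG1, a subunit of ADP-glucose pyrophosphorylase, at 1.01 (0.72 to 1.30). SEX1 and PHS2, which act in starch breakdown and have the most reads of the list, were at 0.60 and 0.72.

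**Figure D2:**
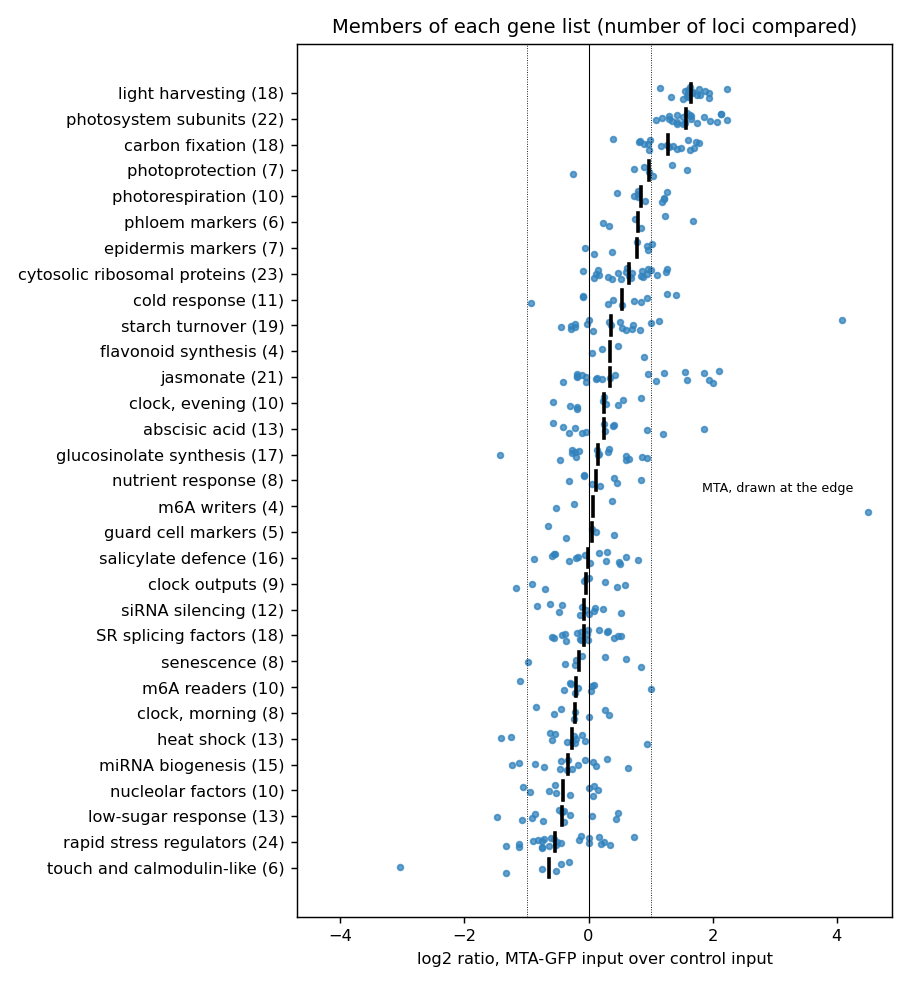
Each point is a tested member of a gene list (rows, with the number of loci compared) placed at its log2 ratio, MTA-GFP input over control input; black bars are list medians and dotted lines mark 2-fold. MTA is drawn at the edge, since its ratio of 5.99 lies off the axis. Light harvesting and photosystem members all lie to the right of the 2-fold line, and all 6 touch and calmodulin-like members lie left of 0.

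The photosynthesis genes have short transcripts and held many reads in these libraries, and the ratio varied with length. Coding loci with transcripts under 1000 nt had a median of 0.34 and 20.2% of them were higher. The median was 0.13 for 1000 to 1500 nt, 0.02 for 1500 to 2000 nt, -0.05 for 2000 to 3000 nt and -0.13 for 3000 nt and over, where 1.39% were higher. Within the class of 1000 to 1500 nt, the 27 photosynthesis loci had a median of 1.65 and the 2365 other coding loci 0.12. Under 1000 nt these medians were 1.49 for 12 photosynthesis loci and 0.33 for 765 others. Among coding loci with 1000 or more reads over both inputs, the 32 photosynthesis loci had a median of 1.63 and the 309 others -0.16.

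**Figure D3:**
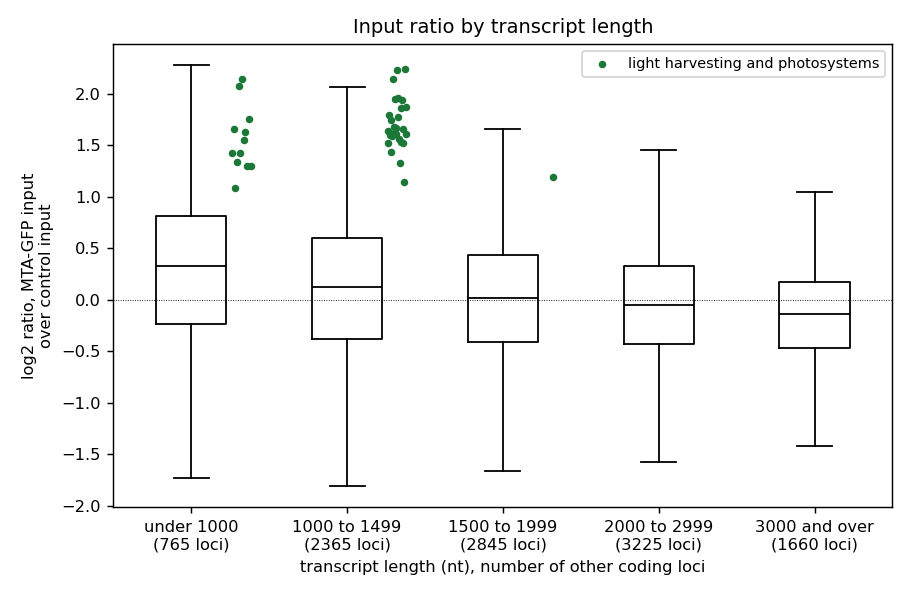
Boxes show the quartiles and medians of log2 ratios, MTA-GFP input over control input, of coding loci in 5 classes of transcript length in nucleotides, without the photosynthesis loci; whiskers end at the last locus within 1.5 box heights and loci beyond are not drawn. Green points are the 40 light harvesting and photosystem loci. Box medians fall with length, between 0.33 and -0.13, and the green points lie above 1 in each class that has any.

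Short non-coding RNAs of the nucleus also stood above the typical locus. Small nucleolar RNAs guide the modification of ribosomal RNA. Of 49 that reached the minimum, 29 were higher and 1 was lower, with a median of 1.16 (0.18 scaled to all reads). The shares over all loci were 7.26% higher and 6.84% lower. AT1G09867 had 103 reads in the MTA-GFP input and 27 in the control input, at 2.75 (2.15 to 3.44). AT1G07897 was at 2.46 and AT3G24615 at 2.34. AT2G08770, the snoRNA with the most reads, was at 0.31 (0.27 to 0.35) from 8636 MTA-GFP and 12466 control reads, and AT4G06305 was the 1 lower, with 0 reads in the MTA-GFP input and 46 in the control input. Between the IPs 42 of the 49 were lower, against 3.18% of all loci, at a median of -1.87.

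Small nuclear RNAs, which build the spliceosome, had 6 of 17 loci higher (against 7.26% of all loci) and 1 lower. Their median was 0.60 (-0.37 scaled to all reads). Single copies of these families went in opposite directions. U1.10 had 137 reads in the MTA-GFP input and 0 in the control input, which makes it at least 81.7-fold higher against a floor of 3 reads. U1.5 had 0 MTA-GFP and 118 control reads and was at least 22.0-fold lower. The 13 loci of U1 together, a sum formed after their values were seen, had 238766 reads in the MTA-GFP input and 281284 in the control input, at 0.60 (0.59 to 0.61). The copies are near-identical, so the reads of any single copy are uncertain. The U6 loci U6.3 and U6.4, also near-identical, each had 138 reads in the MTA-GFP input and 1 in the control input. The family of 14, likewise summed after its values were seen, had 278 MTA-GFP and 4 control reads, at 6.79 (5.59 to 8.84). Most of its MTA-GFP reads were those of U6.3 and U6.4. Structural RNA entries without a locus are in neither family sum.

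Of 102 other non-coding loci, 10 were higher and 13 lower, beside 7.26% and 6.84% of all loci, at a median of -0.08. AT1G15405, a non-coding locus with no symbol in the reference, had 5977 reads in the MTA-GFP input and 715 in the control input and was 14.9-fold higher, at 3.90 (3.79 to 4.02). Between the IPs AT1G15405 had 271014 MTA-GFP and 67598 control reads and was not called, at 0.04 (0.03 to 0.06). Among 5 microRNA loci that reached the minimum, MIR775 was higher at 2.31 (1.40 to 3.38) and MIR4228 at 1.15 (0.91 to 1.40), and MIR5642a was lower at -1.36 (-1.91 to -0.87). MIR5642a lies beside ribosomal DNA. PMI15, annotated as a pseudogene, had 370 reads in the MTA-GFP input and 2307 in the control input, at -1.80 (-1.96 to -1.64).

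Genes of the cytosolic ribosome stood together above the typical locus, mostly by less than 2-fold. Of 23 loci 22 had ratios above 0, and 4 were higher (against 7.26% of all loci) and 0 lower. The median was 0.65, which turns to -0.32 scaled to all reads. RPS15 was at 1.25 (0.83 to 1.67) and EMB2296, a ribosomal protein locus, at 1.27 (0.81 to 1.73). The median transcript length of this list was 1026 nt. Nucleolar factors, which process ribosomal RNA, stood on the other side at a median of -0.42, with 0 of 10 higher, 1 lower (against 6.84% of all loci) and 4 above 0. NAP57, the pseudouridine synthase of box H/ACA particles, was at -1.05 (-1.43 to -0.70), from 81 reads for the MTA-GFP input and 302 for the control input. NUC-L1, a nucleolin, had 615 MTA-GFP and 1589 control reads and was at -0.53 (-0.67 to -0.40).

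Jasmonate is the wound hormone made from chloroplast lipids, and 8 of 21 tested loci were higher and 0 lower, against 7.26% higher over all loci. The median was 0.34, which turns to -0.63 scaled to all reads. LOX2, the chloroplast lipoxygenase, had 2074 reads in the MTA-GFP input and 927 in the control input and was 4.00-fold higher, with a log2 interval of 1.89 to 2.11. AOC1, an allene oxide cyclase, was at 1.95 (1.45 to 2.48) and AOS, the allene oxide synthase before it in the pathway, at 1.09 (0.88 to 1.30). CORI3, a jasmonate-responsive cystine lyase, had 283 MTA-GFP and 117 control reads, at 2.11 (1.80 to 2.44). VSP1, a vegetative storage protein, was at 1.86 (0.92 to 2.92). AOC2 (1.58), VSP2 (1.22) and the defensin PDF1.2 (1.56) complete the called members. No tested regulator was called. MYC2, the central transcription factor of the pathway, had 310 MTA-GFP and 631 control reads, at -0.19 (-0.39 to 0.01), and the 8 tested JAZ repressor loci ran between -0.19 for JAZ3 and 0.96 (0.42 to 1.49) for JAZ12, with TIFY7 at 0.43 (0.17 to 0.69). LOX3, another lipoxygenase, was at -0.05 (-0.26 to 0.16). JAZ3, JAZ12 and TIFY7 were named after their values were seen.

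Touch and calmodulin-like genes, which respond within minutes to mechanical or calcium signals, were on the lower side of 0 in all 6 tested loci, with a median of -0.64. CML37, a calmodulin-like protein, had 14 reads in the MTA-GFP input and 212 in the control input. It was 8.19-fold lower in the MTA-GFP input, at -3.03 (-3.98 to -2.30). TCH2, also calmodulin-like, had 78 MTA-GFP and 354 control reads, at -1.34 (-1.72 to -0.99). TCH4, a xyloglucan-modifying enzyme, was at -0.76 (-1.13 to -0.41) and TCH3 at -0.53 (-0.70 to -0.37), both short of 2-fold. The remaining members, CML38 and CAM9, were at -0.44 and -0.31 with intervals that include 0.

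Rapid stress regulators are transcription factors and zinc finger proteins induced early by many stresses. Of 24 loci 17 were below 0, 3 were lower (against 6.84% of all loci) and 0 higher, and the median was -0.54. WRKY46 had 16 reads in the MTA-GFP input and 74 in the control input, at -1.34 (-2.25 to -0.58). ERF104, an ethylene response factor, had 83 MTA-GFP and 326 control reads, at -1.13 (-1.50 to -0.78), and WRKY53 was also at -1.13 (-1.63 to -0.67). WRKY33, with 479 MTA-GFP and 1450 control reads, was at -0.76 (-0.91 to -0.61) and the zinc finger gene SZF1 at -0.81 (-0.98 to -0.65). The intervals of these 2 loci, which have the most reads of the list, leave out 0 and end short of 2-fold. Of 13 heat shock loci, 2 were lower and 12 lay below 0, with a median of -0.27. They were HSF4, a heat shock factor, at -1.41 (-1.81 to -1.04), and DREB2A, a drought and heat regulator, at -1.25 (-1.60 to -0.94). The chaperone HSC70-1 was the exception at 0.95 (0.84 to 1.06).

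The low-sugar response comprises genes induced in darkness or starvation. Of 13 loci, 10 were below 0, 2 were lower and 0 higher, at a median of -0.43. The share lower over all loci was 6.84%. TPS9, a trehalose-phosphate synthase homologue, had 21 reads in the MTA-GFP input and 107 in the control input, at -1.48 (-2.26 to -0.83). DIN10, a dark-inducible gene, had 228 MTA-GFP and 857 control reads, at -1.07 (-1.29 to -0.86), and TPS8 had 335 MTA-GFP and 1127 control reads, at -0.91 (-1.09 to -0.73). Between the IPs 6 of the 13 were lower, against 3.18% of all loci, at a median of -0.96.

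The remaining hormone and metabolism lists had few calls, to be set beside 7.26% higher and 6.84% lower over all loci. Of 16 salicylate defence loci, 0 were called, with a median of -0.01 and the glucanase BGL2 at 0.03 (-0.16 to 0.21). Of 11 cold response loci, 8 were above 0 and 2 were higher, COR413-PM1 at 1.27 and GolS3 at 1.41 (0.51 to 2.37), and the median of 0.53 turns to -0.44 scaled to all reads. Of 13 abscisic acid loci, 2 were higher, RD20 at 1.86 (0.92 to 2.92) and RAB18 at 1.20 (0.53 to 1.88), while RD22, with the most reads of the list, was at -0.41 (-0.50 to -0.32). Of 17 glucosinolate loci, 1 was lower. It was UGT74B1, the glucosyltransferase of the core pathway, with 139 reads in the MTA-GFP input and 670 in the control input, at -1.43 (-1.70 to -1.16). CYP83B1, an enzyme that acts before it, was at 0.61 (0.41 to 0.80). No member was called of 8 senescence, 8 nutrient and 4 flavonoid loci. The medians of the abscisic acid (0.24), glucosinolate (0.16), nutrient (0.12) and flavonoid (0.35) lists turn to -0.73, -0.82, -0.85 and -0.63 scaled to all reads.

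Transcripts of clock genes cycle with the hour of the day. Of 8 morning and 10 evening loci 0 were called in either direction, and the medians were -0.22 and 0.25, of which the evening one turns to -0.73 scaled to all reads. PRR7, a morning repressor, had 972 reads in the MTA-GFP input and 3112 in the control input, at -0.84 (-0.95 to -0.74), and GI, an evening gene, had 290 MTA-GFP and 372 control reads, at 0.48 (0.25 to 0.71). Among 9 clock outputs, CCR1 (also called GRP8), a glycine-rich RNA-binding protein that shapes splicing of its own transcript, was lower at -1.18 (-1.24 to -1.11) from 2237 MTA-GFP and 9038 control reads. Its paralogue GRP7 had 4901 MTA-GFP and 14324 control reads and was at -0.71 (-0.76 to -0.66), short of the rule. CCR1 was the 1 output called, against 6.84% lower over all loci.

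The RNA-processing lists below had medians under 0, 2 of them close to it, and few members were called. Of 15 microRNA biogenesis loci, 11 were below 0 and 2 were lower (against 6.84% of all loci), with a median of -0.34. DDL, a forkhead-associated protein that binds the dicer, had 88 reads in the MTA-GFP input and 371 in the control input, at -1.23 (-1.59 to -0.90). MOS2, an RNA-binding protein needed for processing, was at -1.11 (-1.53 to -0.73) in the inputs and was higher between the IPs, at 1.03. DCL1, the dicer itself, was at -0.35 (-0.53 to -0.17). None of 12 siRNA silencing loci and none of 18 SR splicing factor loci was called, with medians of -0.07 in both lists. Below 0 were 7 of the siRNA and 12 of the SR loci. RS40, the SR locus with the most reads, was at -0.37 (-0.57 to -0.19).

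Markers of cell types and organs bear on what the leaf preparations held. The 9 flower genes had 13 reads in the MTA-GFP input and 15 in the control input summed, and 0 reached the minimum. SEP2 had 0 reads in both inputs, AP3, AG, LFY and SEP1 had 0 in the MTA-GFP input alone, and AP1 and SEP3 had 0 in the control input alone, with no more than 7 reads for any gene in either input. The share higher over all loci was 7.26%. Of 6 phloem markers 2 were higher, SEOR1 at 1.68 (0.97 to 2.44) and SWEET11 at 1.23, and all 6 were above 0. The summed scaled reads of all 8 listed phloem markers were 1103.4 in the MTA-GFP input and 702.1 in the control input. Between the IPs 4 of the 6 were lower, against 3.18% of all loci, at a median of -1.55. Of 7 epidermis markers 1 was higher, LP1 (a lipid transfer protein also called LTP1) at 1.03 (0.78 to 1.28), with summed scaled reads of 1552.8 in the MTA-GFP input and 932.4 in the control input. The medians of the phloem and epidermis lists, 0.79 and 0.78, turn to -0.18 and -0.19 scaled to all reads. TGG2, a myrosinase of myrosin and guard cells, was at 1.20 (1.08 to 1.32), and TGG1 was at 0.74 (0.67 to 0.81). None of 5 tested guard cell markers was called, and the scaled reads of all 6 listed sum to 230.0 for MTA-GFP and 224.3 for the control. The 6 genes of dividing cells held 45 MTA-GFP and 113 control reads, or 60.2 and 84.5 when scaled, at -0.48 (-1.02 to 0.02). Of the 5 xylem markers, 1 reached the minimum, CESA4, a cellulose synthase of secondary walls, and it was lower at -1.13 (-1.99 to -0.40) with 18 MTA-GFP and 72 control reads. All 5 together held 55 MTA-GFP and 120 control reads, at -0.28 (-0.77 to 0.19). Between the IPs CESA4 was called the other way, at 1.42 (0.46 to 2.76). The part of cell composition in the photosynthesis, phloem and stress results was not tested.

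Outside the lists, the coding loci farthest from 0 were mostly of few reads. AT2G05250 had 47 reads in the MTA-GFP input and 1 in the control input, at 5.82 (3.84 to 11.73), and AT2G05230, of like length and near it in the reference, had 0 MTA-GFP and 48 control reads and was at least 8.95-fold lower. Summed, this pair had 47 MTA-GFP and 49 control reads and stood at 0.78 (0.17 to 1.39). AT1G18010 had 0 MTA-GFP and 60 control reads and was at least 11.2-fold lower, while its neighbour AT1G18000 had 92 MTA-GFP and 43 control reads. That pair summed to 92 MTA-GFP and 103 control reads, at 0.68 (0.25 to 1.10). Both sums were formed after the values were seen, and how reads were divided within each pair was not tested. AT1G17820 had 0 reads in the MTA-GFP input and 76 in the control input, at least 14.2-fold lower, and had 0 reads in both IPs. AT5G47360 had 1 MTA-GFP and 53 control reads, at -4.32 (-10.22 to -2.35).

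Other loci far from 0 ranged widely in their reads. AT1G56660 had 411 reads in the MTA-GFP input and 3678 in the control input, at -2.32 (-2.47 to -2.18). AT1G10320 had 113 MTA-GFP and 1085 control reads, at -2.42 (-2.72 to -2.14). YAO, which encodes a nucleolar WD-repeat protein, had 32 MTA-GFP and 377 control reads, at -2.70 (-3.29 to -2.20). AT3G57930 was at -2.44 with 47 MTA-GFP and 461 control reads, and AT2G27660 at -3.11 with 8 MTA-GFP and 131 control reads. In the upward direction AT1G14250 was at 3.44 (2.29 to 5.07) with 39 MTA-GFP and 6 control reads and AT4G22490 at 2.93 with 40 MTA-GFP and 9 control reads. Their counting intervals between the inputs leave out 2-fold in every case given here. Between the IPs AT1G56660 was called the other way, at 1.13 (0.75 to 1.55), with 513 MTA-GFP and 60 control reads. AT1G14250 was again higher there, and the other loci of this paragraph were not called.

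**Figure D4:**
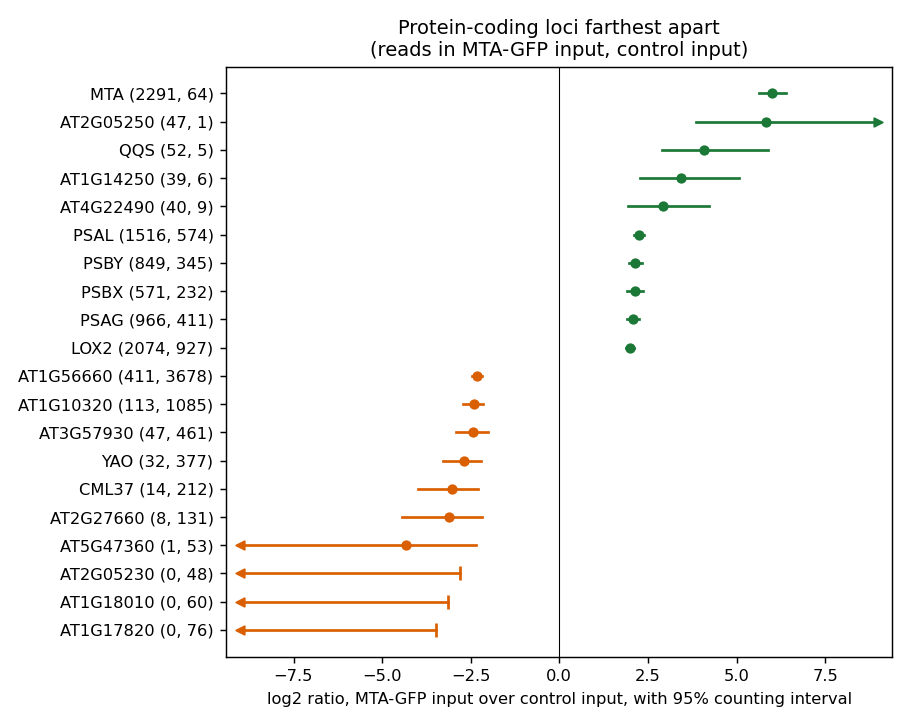
Points are log2 ratios, MTA-GFP input over control input, of the 10 highest and 10 lowest coding loci by the interval end nearest 0, with 95% counting intervals; the reads in each input are in parentheses. Arrows mark intervals that run past the axis, and loci with 0 reads in the MTA-GFP input have no point. MTA leads, followed by loci of few reads and by 4 photosystem loci and LOX2 with narrow intervals.

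The IPs are a second pair of libraries of the same lines, and the same loci were compared in them as MTA-GFP IP over control IP. In them 424 loci were higher, 3.83% of those tested, and 352 were lower, 3.18%. Both are libraries of RNA captured on GFP-Trap beads, so their ratio also holds what the capture did. Of the 804 loci higher between the inputs, 68 were higher between the IPs, which is 8.46% of the input calls and 16.0% of the IP calls, and 50 were lower between the IPs. Of the 758 lower between the inputs, 36 were lower between the IPs, which is 4.75% of the input calls and 10.2% of the IP calls, and 27 were higher. None of the 40 light harvesting and photosystem loci was called between the IPs, where the median was -0.09. CAB1 had 32409 reads in the MTA-GFP IP and 8836 in the control IP and PSAL 3019 MTA-GFP and 885 control reads, at -0.09 and -0.19. The rapid stress regulators had an IP median of 0.30, CML37 stood at 0.71 and TCH2 at 0.37, and none of these lists' members was called there. The difference between the input ratio and the IP ratio was not tested, since each has 1 library a side.

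**Figure D5:**
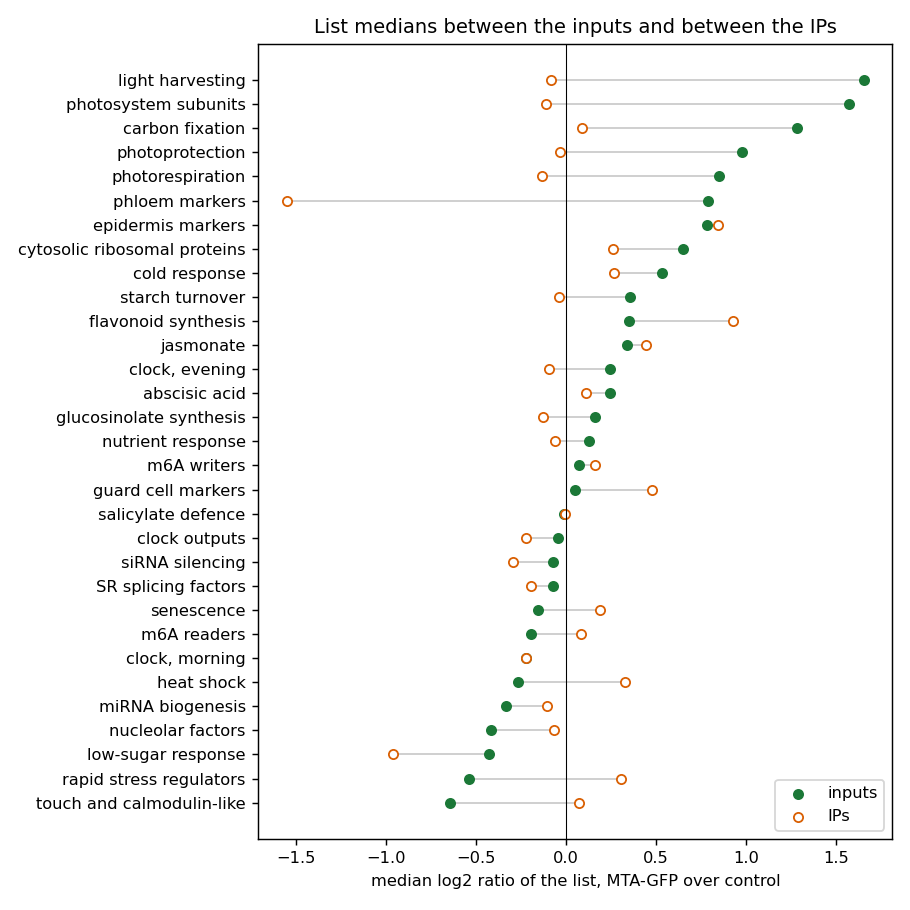
For each gene list (rows), the filled point is the median log2 ratio of MTA-GFP over control in the inputs and the open point that in the IPs, over the same loci. The light harvesting list lies at 1.65 in the inputs and -0.08 in the IPs, the rapid stress list at -0.54 and 0.30, and the low-sugar list at -0.43 and -0.96.

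Loci called the same way in both pairs were few. MTA led the 68 that were higher, and QQS was at 4.09 in the inputs and 3.05 (2.13 to 4.36) in the IPs, with 273 reads in the MTA-GFP IP and 8 in the control IP. CORI3 was at 2.11 and 1.10. Named after their values were seen, PRP4, a proline-rich cell wall protein, was at 1.89 in the inputs and 1.06 in the IPs, LTP5, a lipid transfer protein, at 1.42 and 1.23, and BAM5, a beta-amylase, at 1.41 and 2.42. PGIP1, an inhibitor of polygalacturonase, had 29 reads in the MTA-GFP input and 11 in the control input, and 105 in the MTA-GFP IP and 0 in the control IP. Among the 36 lower in both, BT2, a scaffold protein of sugar and nitrogen responses, had 49 reads in the MTA-GFP input and 296 in the control input and was at -1.74 in the inputs and -1.53 in the IPs. AT5G61330 was at -2.29 and -1.41. DIN10 and TPS9 of the low-sugar list were also lower in both pairs, at -1.51 and -1.17 in the IPs.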

How the data were processed

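RNA of nuclear fractions was measured in 4 libraries, 1 per group, with groups taken from the sample titles. The submitters' processing notes name Trimmomatic, Bowtie, HISAT2, Salmon and the build TAIR10. What each tool did, its version and the strand setting were not given in the sources used here. Reads of antisense or overlapping genes may therefore be mixed. Per the file headers, the deposited values are the estimated count (NumReads) and the TPM of 55524 entries. Reads shared by near-identical copies are divided by estimation.

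For each locus the estimated counts of its entries were added and rounded. All 32548 loci matched the reference gene table (TAIR10.1), from which symbols, types and neighbouring genes were taken. Of 21986 loci with reads in the inputs, 11078 had at least 40. TMM factors came from edgeR 4.0.16 in R 4.3.3, the IPs were scaled likewise over the same loci, 0.5 reads were added for ratios, and intervals are exact conditional (Clopper-Pearson) 95% intervals. A locus with 0 reads in an input has a bound against 3 reads in that library. Length is the deposited transcript length, weighted by reads over a locus. The ratios and calls were tested on simulated counts with counting error only. That simulation held no variation between libraries and no division of reads between copies, so it does not bear on either.

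The members and the 37 gene lists (522 loci used, and 11 left out for want of a symbol in the reference) were chosen with earlier results of these data known. Genes named are the 10 highest and 10 lowest coding loci and the 3 highest and 3 lowest others by the interval end nearest 0, MTA, and up to 4 members per list (8 in lists where at least 1 in 3 of the tested members were called in 1 direction). Other members of small lists, all called members of the jasmonate, stress, starch and writer lists and loci called in both pairs were named after their values were seen. Alternatives were DESeq2 1.42.0 size factors, other scales, read minimums, amounts added, fold rules and the deposited TPM. The TPM values were rescaled to coding loci and called without an interval. A search of promoter motifs was planned and not run here, and no sequence is printed.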

Additional observations from a re-analysis of the deposited data

How the results depend on the processing

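No paired analysis was possible because each group holds 1 library. Without replicates nothing could be left out in turn. MTA stayed higher under the 11 alternatives that give it a ratio, between 5.02 (scaled to all reads) and 6.01. Scaled to reads on nuclear loci and to all reads, 74 and 50 loci were higher and 4338 and 5354 lower. The median of the 40 light harvesting and photosystem loci was 0.79 and 0.65 on these scales and 1.46 on the deposited TPM, which gave 499 higher loci. Other read minimums changed how many loci were compared. A minimum of 10 reads gave 1210 higher loci, a minimum of 1 read gave 1279 higher and 1210 lower, and a minimum of 100 reads gave 416 and 394. A call that needs the interval past 2-fold left 203 higher and 157 lower, a 4-fold rule 49 and 61, and a 1.5-fold rule 1728 and 1532. Medians of 33 of 38 lists and gene types moved when scaled to reads on nuclear loci, and of 35 when scaled to all reads. No named locus that was called changed sign under any of these alternatives, but list medians of ribosomal protein, photorespiration, phloem, epidermis, guard cell, jasmonate, starch, cold, abscisic acid, glucosinolate, flavonoid, nutrient, evening clock, m6A writer, microRNA (-0.25), rRNA (-0.03) and snRNA loci turned below 0 when scaled to all reads. Of 164 named loci, 34 lost their call scaled to reads on nuclear loci and 40 scaled to all reads, CAB1, LHCA2, RBCS1A and AOC1 among those 40, while 26 and 30 gained one. Other scales, read minimums and amounts added, and the deposited TPM, took the call of at most 6 of the named loci still compared. Among them were STO at 0.97 and LP1 at 0.96 on coding reads, and SS1 at 0.92, AOS at 0.91 and MIR4228 at 0.98 on TPM. Lost calls of named loci were not counted under the interval, 4-fold and 1.5-fold rules. A locus short of 4-fold, such as CAB1 at 1.75, has no call under the 4-fold rule. Depth limits loci near 40 reads, whose intervals span over 2-fold.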
